A study of Mus musculus with 20 samples.

Results

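Liver RNA of C3H mice was compared with liver RNA of C57/Bl6 mice, 10 of the 20 animals of the series. Each animal gave 1 whole-transcript microarray, and both strains had 5 animals. All of them were males of 6 weeks that had been fed a diet with 45% of its calories from fat from weaning at day 21 onwards. No animal carried a transgene or received another treatment, so the strains differ by their whole genomes. The labels give C3H with a supplier's stock number and C57/Bl6 without a substrain. The remaining animals, 5 NZO/Hl (NZO) and 5 129P2/OlaHsd (129P2) males of the same age and diet, contributed to the estimate of spread, and their levels are given beside those of the compared strains as a description. Of 19938 genes with a probe set of 1 gene symbol, 14190 were bright enough to be tested. Levels and differences are given in log2 units, where 1 unit is 2-fold, and every difference is C3H minus C57/Bl6 with its standard error (SE). A gene is said to have been called, to be higher or lower, or to have passed the test where its limma p-value, adjusted over all 14190 genes by Benjamini-Hochberg, was under 0.05. Where the values of single animals are given, they run from animal 1 to 5, and the strains did not overlap unless an overlap is stated. A value is called dim where it does not exceed the 40th percentile of all values on that array.

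Inbred strains differ by many fixed sequence variants, and liver levels of single genes can differ between strains by large factors where a variant lies in or near the gene. Liver also holds cells other than hepatocytes. Kupffer cells, the resident macrophages, display peptides on MHC class II molecules, while type I interferon induces a set of antiviral genes in most cell types. The 9 tested hepatocyte markers were at like levels in both strains: Alb, the plasma albumin gene, had a mean of 14.31 ± 0.03 in C3H and 14.26 ± 0.03 in C57/Bl6 (SD, n = 5), and 0 of the 9 were called (0 at an unadjusted limma p under 0.05). The log2 of their summed level was 16.744 to 16.783 in C3H and 16.708 to 16.784 in C57/Bl6.

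C3H liver differed from C57/Bl6 liver in 1142 genes, 8.05% of those tested. There were 384 genes higher in C3H (2.71%) and 758 lower (5.34%). The values of the 5 C3H animals lay entirely above or below those of the 5 C57/Bl6 animals in 813 of the 1142, while 8.81% of all tested genes lay apart in this way. Only 79 called genes differed by 1 log2 unit or more, 28 higher and 51 lower in C3H. The median difference over all tested genes was 0.0019. Without C57/Bl6 animal 4 the number called was 739, with 244 higher and 495 lower, and without C3H animal 4 the number higher was 241.

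The spread of the values on an array differed between the strains as well. The interquartile range of an array was 2.33, 2.40, 2.17, 2.29 and 2.37 log2 units in C3H and 2.41, 2.34, 2.48, 2.47 and 2.44 in C57/Bl6. C3H arrays were narrower by 0.118 (exact two-sided permutation p = 0.0317, 252 relabellings, smallest possible p 0.00794), and p was 0.0556 to 0.0794 without C57/Bl6 animal 1, 3, 4 or 5 or C3H animal 3 or 4. With the interquartile range as a covariate in the fit, 844 genes were called, 437 higher (3.08% of those tested) and 407 lower (2.87%) in C3H. Higher calls thus made up 33.6% of all calls without the covariate and 51.8% with it. Both fits called 588 genes with the same sign (4.14%), 215 higher and 373 lower, and 0 genes with opposite signs. A further 554 calls were lost with the covariate (169 higher, 385 lower) and 256 appeared only with it (222 higher, 34 lower). What sets the spread of an array was not tested. A gene described below as higher or lower with no value for the covariate kept its call and sign with it.

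**Figure D1:**
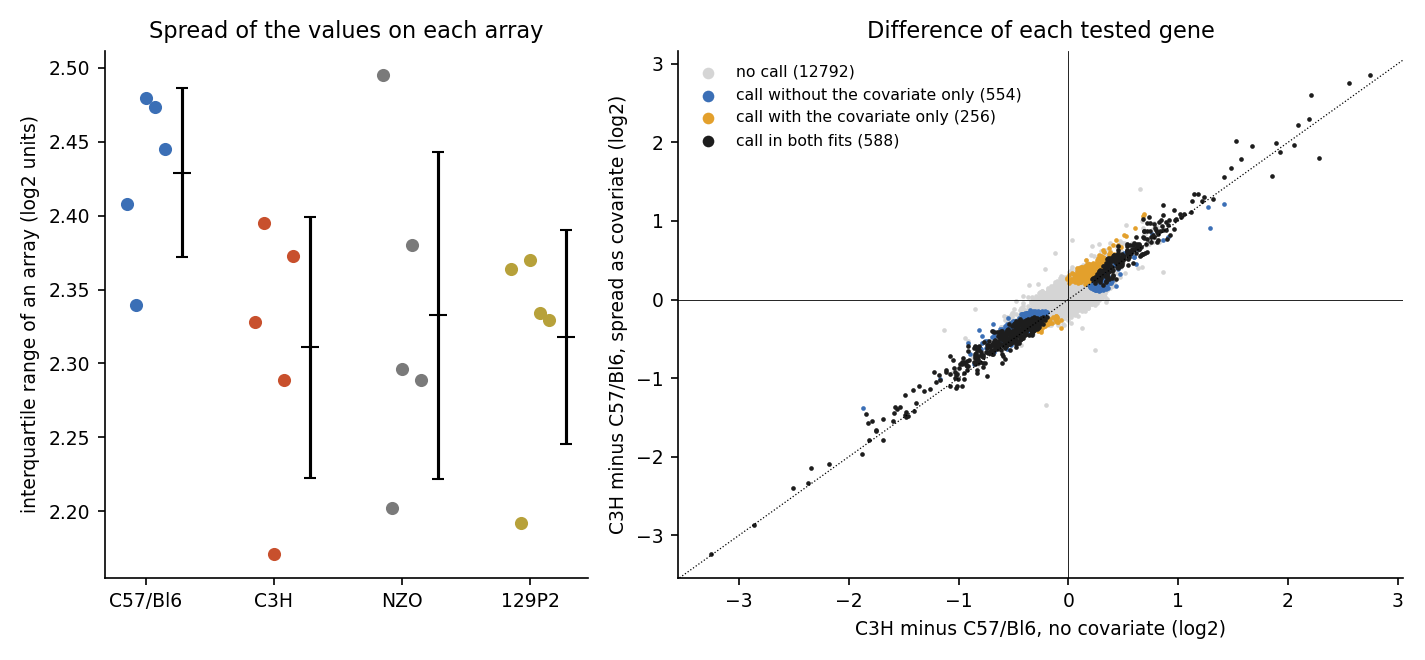
Left, interquartile range of the log2 values on each array, by strain, with the mean and SD of 5 arrays beside the points. Right, the C3H minus C57/Bl6 difference of each of 14190 tested genes without (x axis) and with (y axis) array spread as a covariate. Large differences lie along the dotted line of equality, and the 554 and 256 genes called by only 1 of the fits crowd near the centre.

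The 15 genes with the largest differences in each direction were taken from those called in both fits without overlap of the strains, so these properties are part of the choice. Of all 79 called genes that differed by 1 log2 unit or more, 74 were called in both fits. Asic5, a bile acid-sensitive sodium channel of the acid-sensing family, measured 9.84, 10.45, 9.97, 10.20 and 10.30 in the C3H animals and 7.48, 7.28, 7.41, 7.44 and 7.40 in the C57/Bl6 animals. Every C3H animal thus lay more than 2 log2 units above every C57/Bl6 animal, and the difference was 2.75 ± 0.10 (SE; adjusted p = 3.77e-14), or 2.86 (adjusted p = 6.06e-13) with the covariate. Its mean was 10.23 ± 0.11 in 129P2 and 7.62 ± 0.19 in NZO (SD, n = 5), so 129P2 was near C3H and NZO near C57/Bl6. Abhd1, an alpha/beta-fold hydrolase, followed the same order of strains, with 10.07, 9.79, 9.71, 10.03 and 10.07 in C3H, 7.89, 7.68, 7.65, 7.79 and 7.69 in C57/Bl6, 9.74 ± 0.23 in 129P2 and 7.75 ± 0.20 in NZO. Its difference was 2.19 ± 0.11 (SE; adjusted p = 3.80e-12).

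Several of the higher genes were high in C3H alone among the means of these strains, while Nuggc, given last here, was high in NZO too. Cyp46a1, the cholesterol 24-hydroxylase best known from neurons, measured 9.77, 10.48, 8.73, 9.26 and 9.63 in C3H and 7.15, 7.07, 7.01, 6.86 and 7.001 in C57/Bl6. The C3H animals were spread more widely than the gap between the lowest of them and the highest C57/Bl6 animal, and the difference was 2.56 ± 0.18 (SE; adjusted p = 1.75e-09). The means in NZO and 129P2 were 7.18 ± 0.09 and 7.18 ± 0.07. Tnfsf10, which encodes the death ligand TRAIL, measured 9.05, 8.89, 8.62, 9.58 and 9.78 in C3H against 7.52, 7.30, 7.03, 7.20 and 7.40 in C57/Bl6 (difference 1.89 ± 0.17, SE; adjusted p = 5.26e-08). Kcnk1, a potassium leak channel, measured 8.48, 8.34, 9.81, 9.56 and 8.54 in C3H against 6.97, 7.17, 7.05, 6.998 and 7.27 in C57/Bl6 (1.86 ± 0.20, SE; adjusted p = 1.02e-06), with the narrowest C3H array, that of animal 3, the highest. Mid1, a microtubule-bound ubiquitin ligase, was higher by 1.48 ± 0.17 and Mpp7, a scaffold protein of cell junctions, by 1.42 ± 0.15, with adjusted p = 4.39e-06 and 5.95e-07. Klk1b22, a serine protease of the kallikrein family, was dim on all 5 C57/Bl6 arrays and clearly measured in C3H (8.01, 8.25, 7.65, 7.62 and 7.91), so it was at least 2.49-fold higher there, the bound being set against the brightness under which a value counts as dim. The C3H arrays, where Klk1b22 was high, sufficed to bring it into the test. Its call and its place among the largest differences may carry that selection. Nuggc, a nuclear GTPase first known from germinal-centre B cells, was likewise dim in C57/Bl6, and its C3H mean of 7.56 ± 0.13 was at least 1.98-fold higher, while the NZO mean was 7.62 ± 0.18.

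Other higher genes varied strongly within C3H. Obp2a, an odorant-binding lipocalin, measured 7.46, 7.60, 10.35, 9.34 and 8.84 in C3H and 6.83, 6.80, 5.52, 5.98 and 7.05 in C57/Bl6, with dim values on 2 C57/Bl6 arrays (2.28 ± 0.39, SE; adjusted p = 0.000425; 1.80 with the covariate, adjusted p = 0.00953). Rnase2a, a ribonuclease of the eosinophil-associated family, measured 7.34, 7.66, 9.96, 8.23 and 7.33 in C3H and 6.34, 6.37, 5.28, 5.22 and 7.01 in C57/Bl6, where it was dim on 4 arrays (2.06 ± 0.47, SE; adjusted p = 0.00761; 1.97 with the covariate, adjusted p = 0.0445). Both were highest in C3H animal 3, and both calls were lost in a fit of C3H and C57/Bl6 alone with the covariate (adjusted p = 0.283 and 0.385). Cyp2c39, a cytochrome P450, measured 8.72, 10.10, 8.27, 8.13 and 8.36 in C3H and 7.01, 7.01, 7.47, 7.33 and 7.12 in C57/Bl6, with C3H animal 2 well above the other C3H animals (1.53 ± 0.33, SE; adjusted p = 0.00412). Slc17a8, a vesicular glutamate transporter, was higher by 1.57 ± 0.16 (adjusted p = 7.27e-07).

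Among the genes lower in C3H, Adh6-ps1, annotated as an alcohol dehydrogenase pseudogene, showed the largest difference, -3.25 ± 0.21 (SE; adjusted p = 4.20e-10). It measured 7.22, 7.07, 6.77, 6.64 and 6.82 in C3H and 10.41, 10.82, 9.02, 10.38 and 10.16 in C57/Bl6, and its means in NZO and 129P2 were 7.16 ± 0.11 and 6.79 ± 0.29, near C3H. Clec2h, a C-type lectin-like receptor, had a similar order of strains (6.92 ± 0.27 in C3H, 9.29 ± 0.50 in C57/Bl6, 7.22 ± 0.17 in NZO and 6.90 ± 0.09 in 129P2; difference -2.38 ± 0.17, SE; adjusted p = 1.19e-09). Akr1e1, an aldo-keto reductase, measured 7.68, 7.22, 6.35, 7.90 and 7.22 in C3H and 9.58, 9.74, 9.38, 9.74 and 9.68 in C57/Bl6 (-2.35 ± 0.20, SE; adjusted p = 2.26e-08). Mug2, which encodes a murinoglobulin, a plasma protease inhibitor, was at a high level in both strains, 11.24 ± 0.22 in C3H and 13.12 ± 0.15 in C57/Bl6, and lower in C3H (-1.88 ± 0.18, SE; adjusted p = 2.48e-07). Nnmt, the nicotinamide N-methyltransferase, measured 6.65, 7.23, 7.89, 7.60 and 7.27 in C3H and 8.99, 8.82, 9.21, 9.17 and 8.88 in C57/Bl6 (-1.69 ± 0.23, SE; adjusted p = 2.95e-05). The probes of Adh6-ps1, Mug2, Klk1b22 and the Trim, Cyp2c and Gbp genes may also bind RNA of close copies, which these values cannot separate.

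In a fit restricted to the arrays whose spread both strains share, which leaves 1 C57/Bl6 and 2 C3H arrays and takes the lone array to vary like the others, 20 of these 30 genes were called with the same sign.

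**Figure D2:**
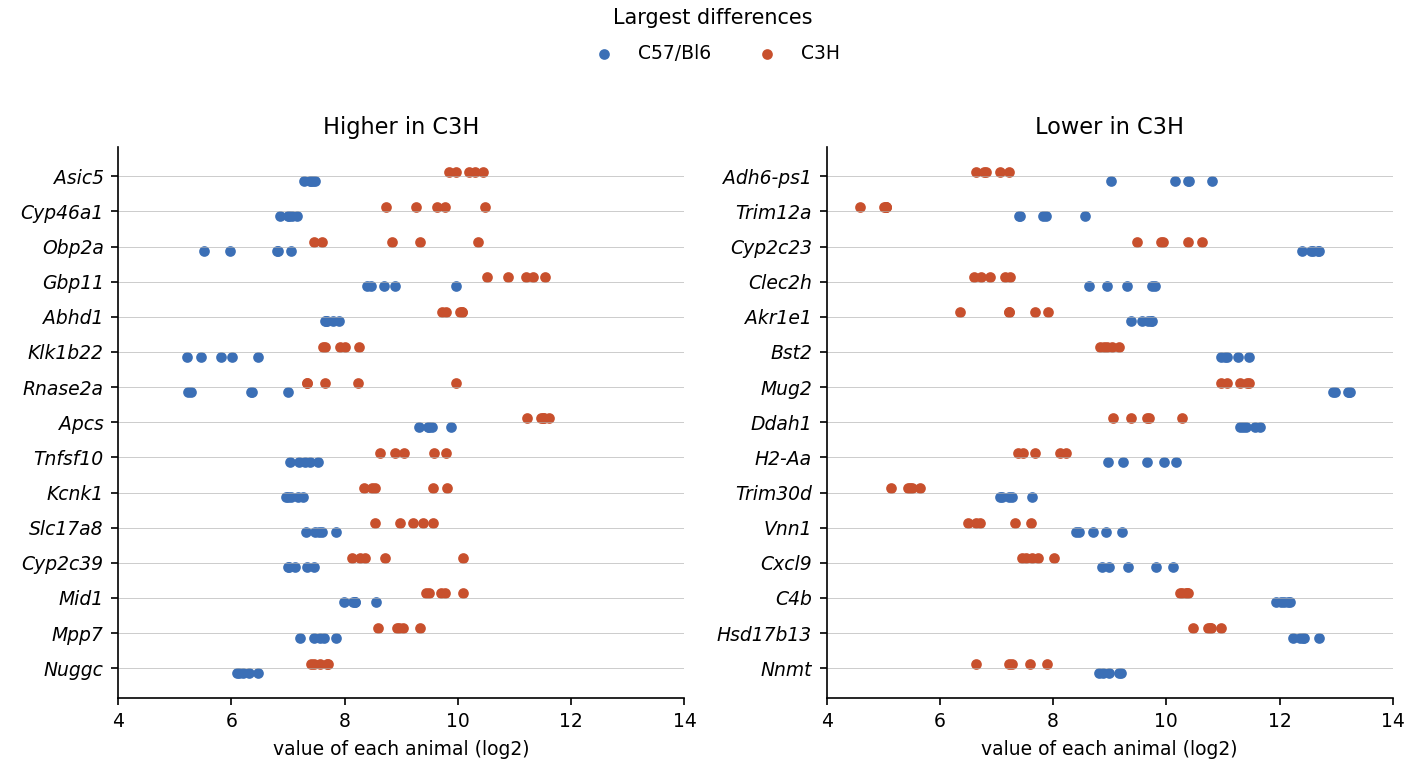
Log2 value of each animal for the 15 genes with the largest differences in each direction among those called in both fits without overlap. Blue points are the 5 C57/Bl6 animals and red points the 5 C3H animals. The C3H animals lie on 1 side of the C57/Bl6 animals for every gene shown.

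Interferon-stimulated genes were lower in C3H. Of 38 tested members of the list, 24 were lower and 0 higher, beside 5.34% lower among all tested genes. The median difference of the list was -0.44, against 0.0019 over all tested genes, and 36 of the 38 differences were negative. With the covariate 10 members were lower, beside 2.87% of all genes, and the median was -0.34. With the covariate and only C3H and C57/Bl6 in the fit 7 were lower, beside 205 of all 14190 genes, at a median of -0.35. In the arrays of shared spread, which leave 1 C57/Bl6 array, the median was -0.33. Without the covariate, the number lower was 16 to 25 with single animals left out. It was 16 without C3H animal 1, and 17 without C3H animal 3 or without C57/Bl6 animal 3, the animal with the highest summed level of this list. The log2 of the summed level was 14.171 to 14.367 in C3H and 14.513 to 14.963 in C57/Bl6, so the strains did not overlap.

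Bst2, which encodes tetherin, a membrane protein that holds budding viruses on the cell, led the list. It measured 8.84, 9.17, 8.90, 9.04 and 8.96 in the C3H animals and 11.26, 11.04, 11.45, 10.96 and 11.07 in the C57/Bl6 animals, a difference of -2.18 ± 0.09 (SE; adjusted p = 9.99e-14) and of -2.09 (adjusted p = 3.52e-12) with the covariate. The means of NZO and 129P2, 9.07 ± 0.08 and 8.80 ± 0.08, were near that of C3H. Trim30d was dim on all 5 C3H arrays and measured 7.22, 7.27, 7.63, 7.07 and 7.09 in C57/Bl6, so it was at least 1.54-fold lower in C3H (measured difference -1.82 ± 0.13, SE; adjusted p = 1.04e-09). The C57/Bl6 arrays, where Trim30d was high, sufficed to bring it into the test, and its call may carry that selection. Irf7, the transcription factor that amplifies the interferon response, measured 8.65, 8.66, 8.59, 9.02 and 8.48 in C3H and 9.80, 9.36, 10.22, 9.34 and 9.53 in C57/Bl6 (-0.97 ± 0.20, SE; adjusted p = 0.00241; -0.82 with the covariate, adjusted p = 0.0295). Its mean in NZO, 9.83 ± 0.44, was like that of C57/Bl6, and that in 129P2, 8.31 ± 0.36, like that of C3H. Ifit1, which binds viral RNA lacking host cap methylation, measured 7.51, 7.71, 7.46, 7.66 and 7.62 in C3H and 8.83, 8.56, 8.76, 8.05 and 8.33 in C57/Bl6 (-0.91 ± 0.17, SE; adjusted p = 0.00136; -0.66 with the covariate, adjusted p = 0.0204). Ifit3, its partner in the same complex, measured 7.78, 8.04, 7.73, 7.80 and 7.71 in C3H and 8.77, 8.67, 9.01, 8.33 and 8.48 in C57/Bl6 (-0.84 ± 0.17, SE; adjusted p = 0.00194). Samd9l, an antiviral factor that restrains cell growth, measured 6.83, 7.44, 6.41, 6.88 and 6.89 in C3H and 8.07, 7.79, 8.48, 7.73 and 7.76 in C57/Bl6 (-1.07 ± 0.19, SE; adjusted p = 0.000561; -0.72 with the covariate, adjusted p = 0.00486). In none of these 6 genes did a C3H animal reach the lowest C57/Bl6 animal. Members of the list that were not called included the GTPases Mx1, which was dim on all 10 arrays, and Mx2 (0.14 ± 0.13, adjusted p = 0.515).

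The following promoter stretches are shown because promoters of interferon-stimulated genes are known for a repeated GAAA core, the interferon-stimulated response element. The motif GAAANNGAAA was searched on both strands, TTTCNNTTTC being its reverse complement, in windows from 250 bases before to 50 bases after each annotated start in RefSeq (GRCm38.p6, the sequence of a C57BL/6J genome). C3H sequence was not used here. The genes shown were chosen from members lower in both fits because they held a match before the start. Rsad2 and Trim30a also did and are not shown. The stretches are those of Bst2 (chr8:71537552-71537631, minus strand), Trim30d (chr7:104507850-104507925, minus strand), Ifit1 (chr19:34640769-34640848, plus strand) and Ifit3 (chr19:34583372-34583451, plus strand), read 5′ to 3′ along the gene, with matches in capitals:
Bst2: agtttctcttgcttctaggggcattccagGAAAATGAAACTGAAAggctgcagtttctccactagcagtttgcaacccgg
Trim30d: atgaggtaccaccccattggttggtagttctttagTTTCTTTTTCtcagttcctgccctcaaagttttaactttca
Ifit1: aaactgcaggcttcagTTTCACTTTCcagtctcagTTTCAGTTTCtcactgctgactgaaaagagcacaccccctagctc
Ifit3: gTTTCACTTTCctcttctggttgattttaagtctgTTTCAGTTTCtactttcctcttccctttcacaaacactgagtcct
In Bst2 the capitals are 2 overlapping matches, and in Ifit1 and Ifit3 they are 2 separate ones. The motif was present in 3.44% of all 32851 windows and in 3.46% of the 11218 tested genes with a window. Windows were found for 26 of the 38 tested list members, of which 14 (53.8%) held it. It was present in 8 of 16 members that were lower in C3H (50.0%) and in 6 of 10 that were not called (60%), and the difference between these shares was not tested. A match describes letters of the reference and does not show binding.

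Most genes of MHC class II presentation were lower in C3H, and 1 was higher. Of 10 tested members 6 were lower and 1 was higher, beside 5.34% and 2.71% of all tested genes, with a median difference of -0.59. With the covariate 5 were lower and 1 higher, beside 2.87% and 3.08% of all tested genes, and the median was -0.48. With the covariate and only C3H and C57/Bl6 in the fit 3 were lower and 1 higher, beside 205 and 191 of all 14190 genes. The median was then -0.49, and in the arrays of shared spread, which leave 1 C57/Bl6 array, it was -0.44. H2-Aa and H2-Ab1, the chains of the I-A molecule, measured 7.38, 7.47, 7.68, 8.13 and 8.22 and 7.43, 7.20, 7.67, 8.11 and 7.90 in the C3H animals. In the C57/Bl6 animals they measured 8.98, 9.66, 10.16, 9.96 and 9.23 and 8.63, 9.30, 9.65, 9.63 and 8.88, above every C3H animal. The differences were -1.82 ± 0.28 (SE; adjusted p = 0.000108) and -1.56 ± 0.26 (SE; adjusted p = 0.000391), or -1.57 (adjusted p = 0.00285) and -1.39 (adjusted p = 0.00713) with the covariate. Cd74, the invariant chain that escorts class II molecules to the endosome, was lower (difference -1.26 ± 0.24, adjusted p = 0.00136; -1.13 with the covariate, adjusted p = 0.0158), as was H2-Eb1, the I-E beta chain (difference -0.83 ± 0.17, adjusted p = 0.00241). H2-Ea, the I-E alpha chain, went the opposite way: it measured 6.84, 7.03, 6.81, 7.18 and 7.21 in C3H and was dim on all 5 C57/Bl6 arrays, at least 1.36-fold higher in C3H (measured difference 1.13 ± 0.12, SE; adjusted p = 1.58e-06). The b haplotype of C57BL/6 mice is known for a deletion that stops transcription of this gene. Its mean was 7.40 ± 0.33 in NZO and 5.97 ± 0.18 in 129P2. The means of H2-Aa, H2-Ab1, Cd74 and H2-Eb1 in 129P2 were 10.32 ± 0.75, 9.98 ± 0.73, 10.61 ± 0.59 and 8.93 ± 0.52, above every C3H animal, and those of NZO lay between C3H and 129P2. The strains differ by MHC alleles, and whether the probes measure both alleles alike was not tested.

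Some markers of Kupffer cells and other macrophages, which carry class II molecules, were lower in C3H too. Of 15 tested markers 5 were lower and 0 higher, beside 5.34% and 2.71% of all tested genes, with a median difference of -0.32. The log2 of their summed level was 12.559 to 12.821 in C3H and 12.889 to 13.424 in C57/Bl6, without overlap. With the covariate 1 was lower, beside 2.87% of all genes, and the median was -0.17. Mpeg1, the pore-forming perforin of macrophages, measured 8.20, 8.46, 8.57, 8.57 and 8.64 in C3H and 9.56, 9.01, 9.66, 9.51 and 9.30 in C57/Bl6 (-0.92 ± 0.17, SE; adjusted p = 0.00121; -0.84 with the covariate, adjusted p = 0.0129). The lysozyme Lyz2, the F4/80 antigen Adgre1, the complement subunit C1qc and the growth factor receptor Csf1r were lower as well, with differences of -0.91 ± 0.25, -0.76 ± 0.20, -0.61 ± 0.14 and -0.56 ± 0.16. None of these 4 was called with the covariate (adjusted p = 0.234, 0.175, 0.0921 and 0.249). The number lower was 2 without C57/Bl6 animal 3 and 3 without C3H animal 1. Without C57/Bl6 animal 3, adjusted p was 0.0790 for Lyz2, 0.0590 for Adgre1 and 0.0949 for Csf1r. Csf1r also lost its call without C57/Bl6 animal 4 or 5 or C3H animal 1, 2 or 3 (adjusted p = 0.0518 to 0.0851), and Lyz2 without C3H animal 1 (0.0631). The defining Kupffer cell genes Clec4f, Vsig4, Timd4 and Cd5l were tested and not called, with differences of -0.36 ± 0.12 (SE; adjusted p = 0.0634) for Clec4f, -0.27 ± 0.22 (SE; adjusted p = 0.451) for Vsig4, -0.17 ± 0.12 (SE; adjusted p = 0.383) for Timd4 and -0.54 ± 0.22 (SE; adjusted p = 0.126) for Cd5l. All 15 markers lay above the dim range on each array of the 4 strains. In RNA of whole liver, fewer cells of a type and less RNA per cell cannot be told apart, and the part of the macrophages in the class II and interferon results was not tested.

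**Figure D3:**
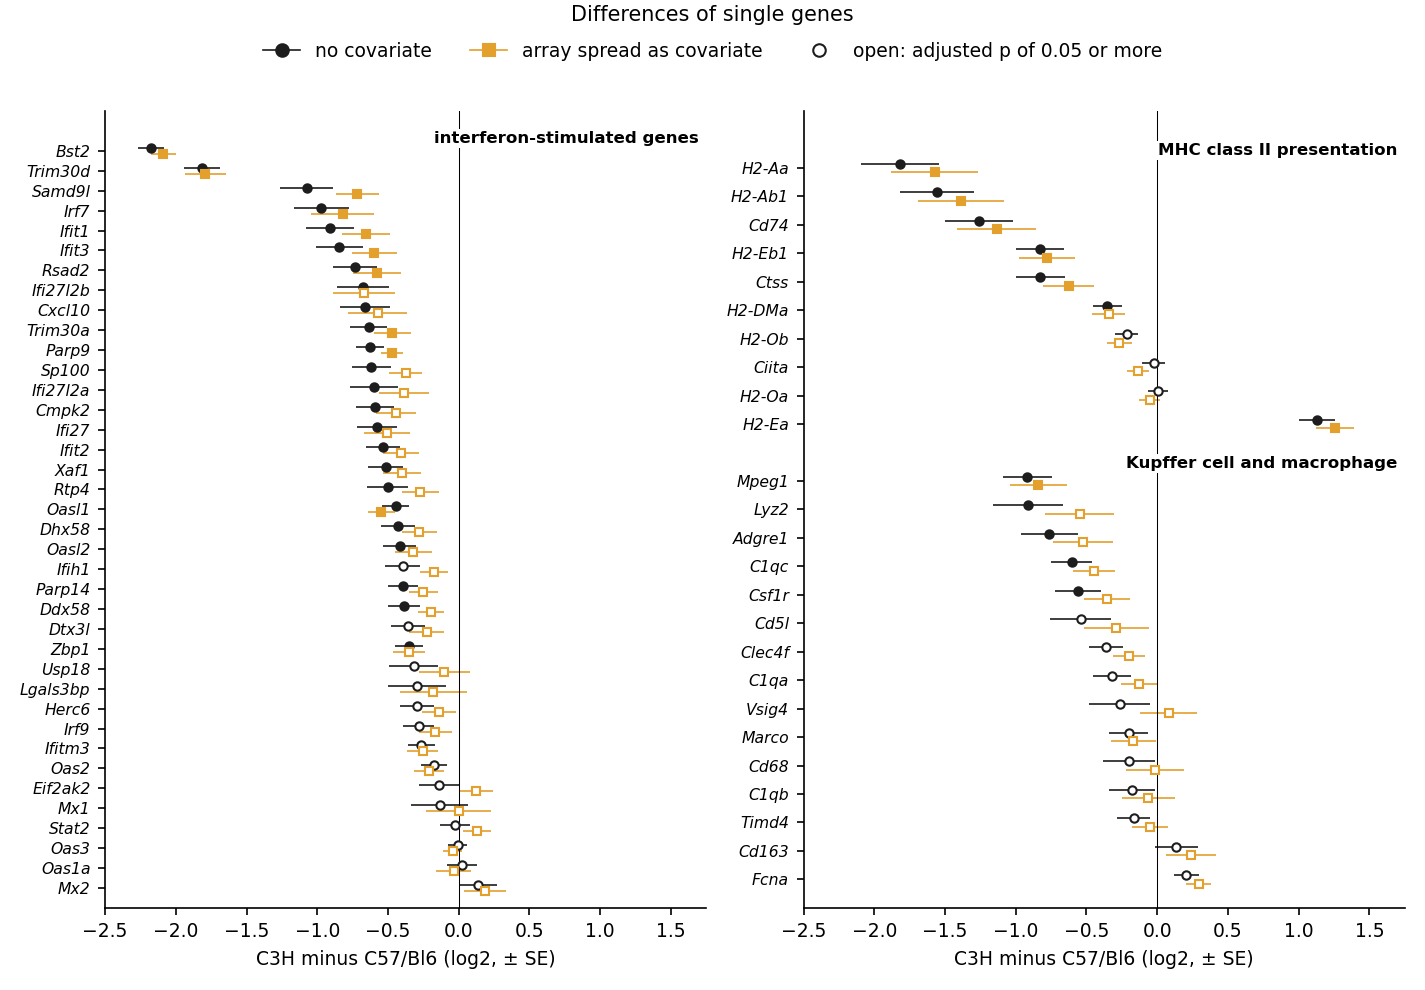
Difference of each tested gene of 3 lists, C3H minus C57/Bl6 in log2 units with its SE. Circles are the fit without the covariate and squares the fit with array spread as a covariate, filled where the adjusted p was under 0.05. Most interferon-stimulated genes lie left of 0 in both fits, and H2-Ea lies far to the right of the other class II genes.

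**Figure D4:**
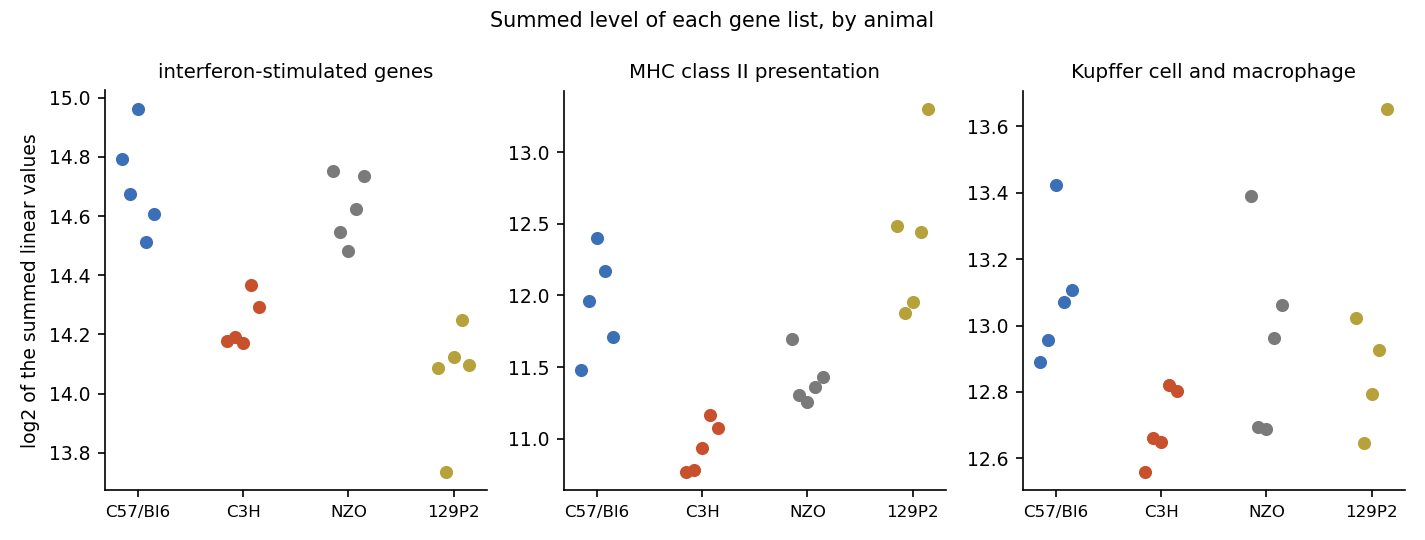
Log2 of the summed linear values of the tested genes of each list, 1 point an animal, by strain. The C3H animals lie under all C57/Bl6 animals in each panel. For the interferon-stimulated genes the NZO animals lie in the C57/Bl6 range or just under it and the 129P2 animals in the C3H range or under it.

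Related immune genes moved in both directions. Gbp11, a guanylate-binding GTPase induced by interferon gamma, was higher in C3H, with 11.21, 11.54, 10.51, 10.89 and 11.32 against 8.46, 8.89, 8.39, 9.97 and 8.69 (2.21 ± 0.32, SE; adjusted p = 6.97e-05). Gbp3 of the same family was lower (-0.76 ± 0.15, SE; adjusted p = 0.00183), as was Irgm1 (-0.46 ± 0.11, SE; adjusted p = 0.0132), whose call was lost with the covariate (adjusted p = 0.102). The other 7 tested members of these GTPase families were not called. Of the 10 tested members 1 was thus higher and 2 were lower, beside 2.71% and 5.34% of all tested genes. Without C57/Bl6 animal 5 the families had 4 lower members. Cxcl9, a chemokine induced by interferon gamma, measured 7.73, 8.01, 7.45, 7.53 and 7.63 in C3H and 8.86, 9.33, 10.13, 9.81 and 8.98 in C57/Bl6, and was lower (difference -1.75 ± 0.29, adjusted p = 0.000257; -1.67 with the covariate, adjusted p = 0.00398). Of 18 genes of MHC class I presentation 3 were lower and 0 higher, beside 5.34% and 2.71% of all tested genes. With the covariate 3 were lower, beside 2.87%, and 2 were lower in both fits. With equal array medians and interquartile ranges 1 was lower. Among those lower in both fits was Tap1, a subunit of the peptide transporter (-0.65 ± 0.10, SE; adjusted p = 0.000180; -0.54 with the covariate, adjusted p = 0.00272). B2m, the light chain of class I molecules, was lower (difference -0.27 ± 0.05, adjusted p = 0.00298), but with arrays brought to equal medians and interquartile ranges its difference was 0.015 (adjusted p = 0.960). Ifi207, of the Ifi200 family of nuclear DNA sensors, was lower (difference -1.12 ± 0.22, adjusted p = 0.00230). Cd52, a small surface glycoprotein of leukocytes, measured 7.13, 7.09, 6.86, 7.20 and 6.94 in C3H and 7.97, 8.22, 9.04, 8.56 and 8.24 in C57/Bl6 (-1.36 ± 0.20, SE; adjusted p = 9.34e-05). Tests of the markers of T and NK cells, neutrophils and dendritic cells gave 0 calls of 6, 6 and 5 tested genes, at medians of 0.02, 0.06 and 0.03. At an unadjusted limma p under 0.05 they gave 2, 0 and 2, and 1 T and NK cell gene was higher without C57/Bl6 animal 2 or C3H animal 2. With the covariate 1 dendritic cell gene was lower, beside 2.87% of all tested genes, and 0 of the other 2 cell types were called. The medians were then -0.11, 0.004 and -0.10. A dendritic cell gene was lower also with equal array medians and with quantile normalization. Of 4 tested genes of B and plasma cells, which also carry class II molecules, 1 was higher, beside 2.71% of all tested genes, at a median of 0.07. That count was 0 with the covariate, where 1 was lower, and 0 without C57/Bl6 animal 1, 3 or 4 or C3H animal 1, 2, 3 or 4.

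The C4 complement genes were lower in C3H. C4b measured 10.25, 10.37, 10.35, 10.39 and 10.27 in C3H and 12.14, 12.03, 11.93, 12.08 and 12.18 in C57/Bl6, a difference of -1.75 ± 0.09 (SE; adjusted p = 5.80e-12), and NZO and 129P2 were both near C57/Bl6 (12.12 ± 0.21 and 12.15 ± 0.14). A low C4 level is known for the k haplotype of the MHC that C3H mice carry. C4a, a close copy whose signal cannot be fully separated from that of C4b, was lower too (-0.76 ± 0.15, SE; adjusted p = 0.00239). Its strains overlapped, with 8.81 in C3H animal 3 and 8.72 in C57/Bl6 animal 3. F12, which starts the contact pathway of coagulation, measured 11.23, 11.25, 10.69, 11.04 and 11.08 in C3H and 11.93, 11.72, 11.91, 12.01 and 11.99 in C57/Bl6 (-0.85 ± 0.09, SE; adjusted p = 1.58e-06; -0.72 with the covariate, adjusted p = 1.15e-05). Of 42 tested genes of complement and coagulation 6 were lower and 1 higher, beside 5.34% and 2.71% of all tested genes, at a median of -0.036. Apcs, the serum amyloid P component, was the leading acute phase gene and was higher in C3H, with 11.48, 11.61, 11.50, 11.52 and 11.22 against 9.31, 9.47, 9.87, 9.49 and 9.54 (1.93 ± 0.13, SE; adjusted p = 1.04e-09; 1.88 with the covariate, adjusted p = 8.62e-08). C57/Bl6 had the lowest mean of Apcs of the strains, those of NZO and 129P2 being 11.95 ± 0.37 and 11.34 ± 0.09. Of the other 29 acute phase genes tested, Saa1 was called. It measured 9.75, 8.47, 11.06, 10.95 and 10.10 in C3H and 9.33, 8.80, 8.11, 8.38 and 9.27 in C57/Bl6, overlapping (1.29 ± 0.38, SE; adjusted p = 0.0394), but the call was lost with the covariate (adjusted p = 0.261) and without C57/Bl6 animal 2, 3 or 4 or C3H animal 1, 3, 4 or 5 (0.0508 to 0.137).

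Single genes of lipid storage and synthesis were lower in C3H. Hsd17b13, an enzyme of the lipid droplet surface whose human variants are known for their link to fatty liver disease, measured 10.79, 10.96, 10.46, 10.73 and 10.77 in C3H and 12.43, 12.24, 12.70, 12.41 and 12.36 in C57/Bl6. Its difference was -1.69 ± 0.10 (SE; adjusted p = 4.47e-11), or -1.52 (adjusted p = 7.08e-11) with the covariate, and the means of NZO and 129P2 (12.45 ± 0.08 and 12.32 ± 0.18) were like that of C57/Bl6. Fitm1, which helps to form lipid droplets, measured 7.58, 7.88, 7.90, 7.73 and 8.22 in C3H and 8.94, 9.85, 8.79, 9.08 and 9.59 in C57/Bl6 (-1.39 ± 0.19, SE; adjusted p = 3.27e-05; -1.32 with the covariate, adjusted p = 0.000752). Pparg, the fat-storing nuclear receptor, measured 6.70, 6.998, 6.97, 7.09 and 6.84 in C3H and 7.41, 7.46, 8.50, 8.12 and 7.40 in C57/Bl6 (-0.86 ± 0.15, SE; adjusted p = 0.000749; -0.80 with the covariate, adjusted p = 0.00860). Together with Cd36, these were the 4 of 22 tested lipid droplet genes that were lower, beside 5.34% of all tested genes, none was higher, and the median was -0.11. With the covariate 3 of the 22 were lower and 1 was higher, beside 2.87% and 3.08%, and the median was -0.046. Cd36, a fatty acid transporter, was lower (difference -0.82 ± 0.24, adjusted p = 0.0340), a call that was lost with the covariate (adjusted p = 0.327) and without C57/Bl6 animal 3, 4 or 5 or C3H animal 1, 3 or 4 (0.0732 to 0.106). Srebf1, the transcription factor that drives fatty acid synthesis, measured 9.38, 9.57, 9.65, 9.82 and 9.83 in C3H and 10.24, 9.98, 10.28, 10.63 and 10.41 in C57/Bl6 (-0.66 ± 0.12, SE; adjusted p = 0.000888; -0.54 with the covariate, adjusted p = 0.0107). Of 31 genes of lipogenesis and triglyceride synthesis 4 were lower and 1 higher, beside 5.34% and 2.71% of all tested genes, at a median of -0.047. With the covariate 1 was lower and 2 were higher, beside 2.87% and 3.08%. Without C57/Bl6 animal 4, C3H animal 3 or C3H animal 4 the number lower was 2, and without C57/Bl6 animal 5 the number higher was 2. One higher in both fits, Gpat3, a glycerol phosphate acyltransferase, differed by 0.49 ± 0.11 (adjusted p = 0.00548), and C57/Bl6 animal 3 lay within the C3H range. Of 20 genes of cholesterol synthesis 0 were called, at a median of 0.35 with 17 positive differences. Of these 20, 7 had an unadjusted limma p under 0.05, and 1 was called higher without C3H animal 1.

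Both measured pantetheinases were lower in C3H. These enzymes cleave pantetheine, a breakdown product of coenzyme A. Vnn1 measured 7.32, 7.61, 6.71, 6.64 and 6.50 in C3H, where it was dim on 3 arrays, and 8.94, 8.71, 9.22, 8.40 and 8.47 in C57/Bl6 (-1.79 ± 0.25, SE; adjusted p = 3.54e-05; -1.55 with the covariate, adjusted p = 0.00111). Vnn3 measured 8.18, 8.57, 7.69, 7.83 and 8.22 in C3H and 9.64, 9.32, 9.60, 9.51 and 9.504 in C57/Bl6 (-1.42 ± 0.14, SE; adjusted p = 3.94e-07; -1.15 with the covariate, adjusted p = 5.64e-07). The means of NZO and 129P2 were like those of C57/Bl6, at 8.57 ± 0.22 and 8.95 ± 0.66 for Vnn1 and 9.48 ± 0.26 and 9.72 ± 0.19 for Vnn3. The other 14 tested genes of coenzyme A synthesis and degradation were not called, although 1 was higher without C3H animal 2. Among them was Nudt19, the peroxisomal coenzyme A hydrolase that the series is about, with 8.71, 8.80, 8.49, 8.75 and 8.69 in C3H and 8.87, 8.60, 8.71, 8.87 and 8.71 in C57/Bl6, overlapping widely (difference -0.06 ± 0.11, 95% interval -0.29 to 0.16). Vnn1 and Vnn3 were also among the 4 lower genes of 33 tested targets of the fatty acid receptor PPAR-alpha, beside 5.34% of all tested genes, none of which was higher, at a median of -0.079. The remaining pair, Acot4 and Aldh3a2, lost their calls with the covariate (adjusted p = 0.180 and 0.242). Acot4 lost it also without C57/Bl6 animal 3 or 4 or C3H animal 3 or 4 (0.0557 to 0.0954), and Aldh3a2 without C57/Bl6 animal 3 or C3H animal 1, 3, 4 or 5 (0.0506 to 0.0852).

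Bile acid and cytochrome P450 genes differed in both directions. Cyp8b1, the sterol 12-alpha-hydroxylase that directs synthesis toward cholic acid, was higher in C3H, with 11.16, 11.56, 11.22, 11.45 and 11.57 against 10.74, 10.88, 10.63, 10.84 and 11.19 (0.53 ± 0.13, SE; adjusted p = 0.0146; 0.62 with the covariate, adjusted p = 0.0141), with 1 animal of each strain overlapping. Hsd17b6, a steroid dehydrogenase, measured 12.37, 12.41, 12.04, 12.23 and 12.31 in C3H and 11.51, 10.72, 12.01, 11.58 and 11.23 in C57/Bl6 (0.86 ± 0.22, SE; adjusted p = 0.0139; 1.198 with the covariate, adjusted p = 0.000797). Among 36 tested bile acid genes, Cyp46a1 and Cyp8b1 included, 4 were higher and 4 lower, beside 2.71% and 5.34% of all tested genes. With the covariate 6 were higher and 0 lower, beside 3.08% and 2.87%. Without C3H animal 4 the number higher was 2, and without C3H animal 3 the number lower was 2. The lower ones included Abcg5, one chain of the sterol exporter of the bile canaliculus (-0.61 ± 0.14, SE; adjusted p = 0.00846), whose call did not hold with the covariate (adjusted p = 0.0548). Cyp2c23, an epoxygenase of arachidonic acid, showed the largest difference among the tested genes of P450 families 1 to 4. It measured 9.91, 10.38, 9.49, 9.95 and 10.63 in C3H and 12.59, 12.56, 12.68, 12.69 and 12.40 in C57/Bl6 (-2.51 ± 0.16, SE; adjusted p = 1.60e-10; -2.40 with the covariate, adjusted p = 2.08e-08), and its mean was 9.66 ± 0.24 in NZO, near C3H, and 12.51 ± 0.17 in 129P2, near C57/Bl6. Cyp3a13, a drug-metabolizing P450, measured 8.69, 8.80, 8.61, 8.87 and 8.72 in C3H and 10.52, 10.20, 10.39, 10.37 and 10.18 in C57/Bl6 (-1.59 ± 0.12, SE; adjusted p = 3.12e-09). Cyp4a12a, a fatty acid hydroxylase known for its male-biased level, was higher by 0.83 ± 0.17 (adjusted p = 0.00308). Of 41 tested genes of the P450 families 4 were higher and 5 lower (3 lower without C3H animal 4), beside 2.71% and 5.34% of all tested genes, at a median of 0.02.

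Of 38 tested conjugating enzymes 4 were lower and 2 higher, beside 5.34% and 2.71% of all tested genes. Ugt3a1, a glycosyltransferase, was lower (difference -0.92 ± 0.18, adjusted p = 0.00164), and Gstm6, a glutathione transferase, was lower too (difference -0.75 ± 0.13, adjusted p = 0.000767), with no animal of C3H reaching one of C57/Bl6. Tpmt, which methylates thiopurine drugs, was higher by 0.64 ± 0.11 (adjusted p = 0.000409), also without overlap. All 3 held with the covariate, at differences of -0.60, -0.57 and 0.69.

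**Figure D5:**
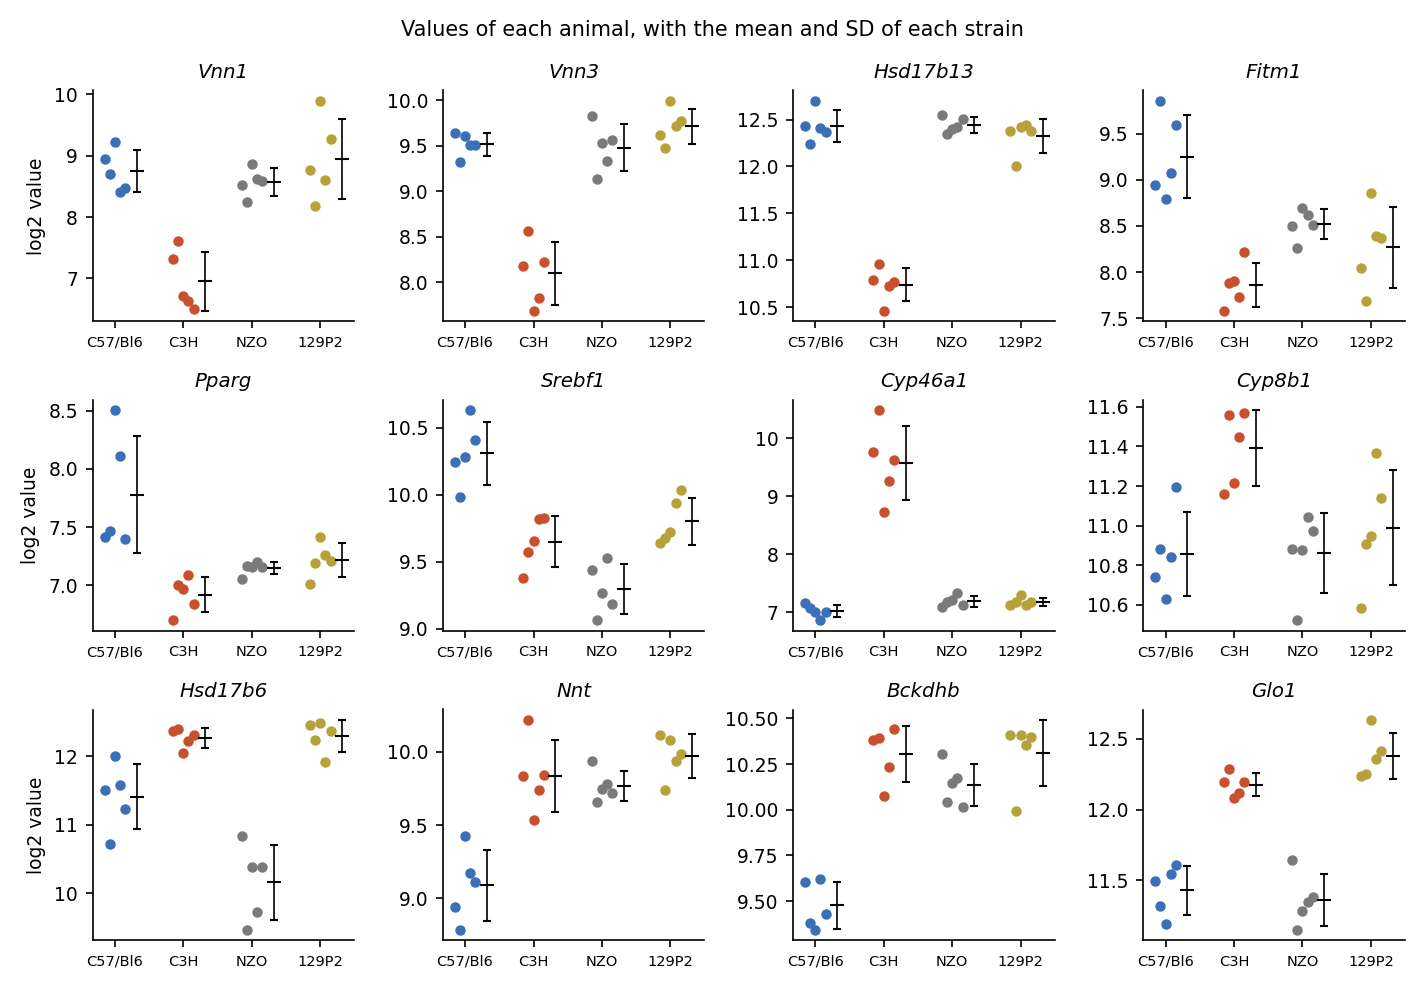
Log2 value of each animal of the 4 strains for 12 metabolic genes, with the mean and SD of 5 animals beside each group. C3H stands under the other strains for Vnn1, Vnn3 and Hsd17b13 and above them for Cyp46a1, while C57/Bl6 stands under the others for Nnt and Bckdhb.

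Mitochondrial and amino acid genes gave a few clear differences. Nnt, the nicotinamide nucleotide transhydrogenase of the inner mitochondrial membrane, measured 9.83, 10.22, 9.54, 9.74 and 9.85 in C3H and 8.94, 8.78, 9.43, 9.17 and 9.11 in C57/Bl6 (0.75 ± 0.12, SE; adjusted p = 0.000190; 0.97 with the covariate, adjusted p = 3.99e-07). A deletion within Nnt is known for the C57BL/6J substrain. The means of NZO (9.77 ± 0.10) and 129P2 (9.97 ± 0.15) were like that of C3H. The other 50 tested genes of the respiratory chain and mitochondrial redox were not called. Bckdhb, a subunit of the branched-chain keto acid dehydrogenase, measured 10.38, 10.39, 10.07, 10.23 and 10.44 in C3H and 9.60, 9.38, 9.34, 9.62 and 9.43 in C57/Bl6 (0.83 ± 0.10, SE; adjusted p = 3.47e-06; 0.99 with the covariate, adjusted p = 4.77e-08), again with C57/Bl6 lowest of the strain means. Ddah1, which breaks down methylated arginines that inhibit nitric oxide synthases, was lower, with 9.69, 9.38, 9.06, 9.67 and 10.27 against 11.36, 11.30, 11.56, 11.65 and 11.41 (-1.84 ± 0.20, SE; adjusted p = 1.25e-06; -1.45 with the covariate, adjusted p = 2.41e-06). Its mean was 8.65 ± 0.43 in NZO and 11.12 ± 0.32 in 129P2. Of 40 genes of the urea cycle and amino acid catabolism 5 were lower and 2 higher, beside 5.34% and 2.71% of all tested genes, at a median of -0.064. With the covariate 1 was lower and 3 were higher, beside 2.87% and 3.08%. The number lower was 1 without C57/Bl6 animal 4 or C3H animal 3, 2 without C3H animal 4, and 3 without C57/Bl6 animal 1 or 5 or C3H animal 1. The number higher was 1 without any of C57/Bl6 animals 1, 2 and 3 or C3H animals 1, 3, 4 and 5. Slc1a2, a glutamate transporter of hepatocytes near the central vein, was lower (difference -1.01 ± 0.19, adjusted p = 0.000988), while C57/Bl6 animal 3, at 9.12, lay within the C3H range of 8.89 to 9.32.

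Single genes of other liver functions differed as well. Igfals, the acid-labile subunit that keeps insulin-like growth factors in the circulation, measured 11.01, 11.11, 10.53, 10.73 and 11.03 in C3H and 10.30, 10.48, 9.85, 10.01 and 10.34 in C57/Bl6 (0.69 ± 0.15, SE; adjusted p = 0.00367; 0.87 with the covariate, adjusted p = 0.000683), the only call among 23 genes of the growth hormone axis. Apon, an apolipoprotein, was higher by 0.40 ± 0.09 (adjusted p = 0.00701). It was the 1 higher gene of 25 tested in its list, in which 2 were lower, beside 2.71% and 5.34% of all tested genes. With the covariate 3 of the 25 were higher and 0 lower, beside 3.08% and 2.87%. The number higher was 2 without C57/Bl6 animal 1 or C3H animal 2 and 3 without C57/Bl6 animal 3, and the number lower was 1 without C57/Bl6 animal 1, 4 or 5 or C3H animal 3. Aadac, an arylacetamide deacetylase of the endoplasmic reticulum, was lower (difference -0.65 ± 0.12, adjusted p = 0.000906), and so was Nod1, a sensor of bacterial peptidoglycan (difference -0.32 ± 0.06, adjusted p = 0.00225). Cdh1, the E-cadherin of hepatocytes near the portal vein, measured 10.05, 9.42, 9.70, 9.94 and 9.66 in C3H and 10.37, 10.21, 10.71, 10.66 and 10.38 in C57/Bl6 (-0.71 ± 0.12, SE; adjusted p = 0.000554; -0.60 with the covariate, adjusted p = 0.00739). It and Hsd17b13 were among the 4 lower genes of 12 tested in a list of periportal genes, beside 5.34% lower of all tested genes, with 0 higher and a median of -0.13. With the covariate 2 of the 12 were lower, beside 2.87%, and 2 were lower without C57/Bl6 animal 4 or C3H animal 3. Rgs5, a marker of pericytes, was higher by 0.69 ± 0.14 (adjusted p = 0.00230) with C57/Bl6 animal 3 in the C3H range. Of 13 tested markers of stellate cells and matrix 1 was higher and 1 lower, beside 2.71% and 5.34% of all tested genes. With the covariate 1 was higher and 0 lower, beside 3.08% and 2.87%. The number lower was 0 without C57/Bl6 animal 4 and 2 without C57/Bl6 animal 1 or 2. Of 20 core clock and clock output genes 0 were called, at a median of 0.049, and 0 had an unadjusted limma p under 0.05.

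A list of genes reported to vary between inbred strains held 26 tested members, of which 5 were higher and 6 lower, beside 2.71% and 5.34% of all tested genes. Trim12a, of the antiviral TRIM5 family, was dim on all 5 C3H arrays and measured 8.56, 7.41, 7.83, 7.87 and 7.39 in C57/Bl6, at least 2.27-fold lower in C3H (measured difference -2.86 ± 0.16, SE; adjusted p = 4.06e-11). It was near background in NZO and 129P2 too (4.83 ± 0.14 and 4.78 ± 0.14). Trim12a was thus bright enough to be tested through the C57/Bl6 arrays alone, the strain in which it was high. Its p-value and its place among the 6 lower members carry that selection. Glo1, the glyoxalase that detoxifies methylglyoxal, measured 12.19, 12.29, 12.08, 12.12 and 12.19 in C3H and 11.50, 11.32, 11.19, 11.55 and 11.61 in C57/Bl6 (0.74 ± 0.10, SE; adjusted p = 1.65e-05; 0.87 with the covariate, adjusted p = 2.31e-06), with 12.38 ± 0.16 in 129P2 and 11.36 ± 0.18 in NZO. Wdfy1, a FYVE-domain protein of early endosomes, was higher by 0.48 ± 0.07 (adjusted p = 8.63e-05), without overlap. Members that did not pass the test included Ahr (-0.13 ± 0.11, SE; adjusted p = 0.455), Hc (0.01 ± 0.09, SE; adjusted p = 0.944), Ide (0.06 ± 0.11, SE; adjusted p = 0.749) and Pnpla3 (-0.05 ± 0.07, SE; adjusted p = 0.678). The list was drawn from general knowledge of mouse strains, so it is no independent evidence of a direction.

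Some genes were called in only 1 of the fits and so rest on how array spread is handled. Cyp2c38, a P450, measured 5.89, 7.63, 5.40, 4.88 and 4.95 in C3H, where every value but that of animal 2 was dim. In C57/Bl6 it measured 7.32, 7.55, 9.10, 7.30 and 6.84, overlapping. The difference of -1.87 ± 0.47 (SE; adjusted p = 0.0151) thus rests in part on dim values. The covariate left -1.38 (adjusted p = 0.145), and without C3H animal 4 the adjusted p was 0.0513. Cyp7b1, the oxysterol 7-alpha-hydroxylase, measured 13.20, 12.80, 13.16, 13.17 and 13.06 in C3H and 12.24, 12.78, 9.28, 11.56 and 12.41 in C57/Bl6 (1.42 ± 0.39, SE; adjusted p = 0.0269; 1.22 with the covariate, adjusted p = 0.148). The C57/Bl6 value of animal 3 was far under the others, and the call was also lost without C57/Bl6 animal 4 (0.0617), C3H animal 1 (0.0542), C3H animal 3 (0.0608) or C3H animal 4 (0.0593). In the opposite direction, Ces1e, a carboxylesterase, was called only with the covariate, at 1.09 (adjusted p = 0.000714) against 0.69 ± 0.22 (SE; adjusted p = 0.0575) without it. Me1, the malic enzyme that supplies NADPH for fatty acid synthesis, measured 10.90, 11.41, 10.80, 11.07 and 11.002 in C3H and 9.92, 10.32, 10.61, 10.55 and 10.35 in C57/Bl6. It did not overlap between the strains and was called with the covariate, at 1.06 (adjusted p = 0.00393), and not without it, at 0.68 ± 0.23 (SE; adjusted p = 0.0761).

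Among 1138 called genes with a next tested gene on the same chromosome, that gene was called with the same sign in 126 (11.1%), and among 587 genes called in both fits in 49 (8.35%). Of all tested genes 2.71% were called higher and 5.34% lower, and 4.14% were called in both fits in either direction. Whether called genes lay next to one another more often than others was not tested. Runs of 3 or more neighbouring called genes numbered 17, all lower in C3H. The runs of H2-Ab1, H2-Aa and H2-Eb1 on chromosome 17 and of Ifit2, Ifit3 and Ifit1 on chromosome 19 are gene clusters of like function; the covariate kept the calls of 3 of 3 genes in the first and 2 of 3 in the second. The other runs called throughout in both fits held genes of unlike function. One was Haus8, Myo9b and Use1 on chromosome 8. Use1, a SNARE protein of retrograde transport to the endoplasmic reticulum, measured 9.34, 9.46, 9.26, 9.27 and 9.39 in C3H and 10.02, 9.96, 9.99, 10.06 and 10.02 in C57/Bl6 (-0.66 ± 0.07, SE; adjusted p = 7.78e-07), and Haus8 and Myo9b differed by -0.51 ± 0.10 and -0.43 ± 0.09. Another was Clns1a, Aqp11 and Myo7a on chromosome 7, where Aqp11, an aquaporin of intracellular membranes, was lower (difference -0.85 ± 0.14, adjusted p = 0.000307) and its neighbours differed by -0.39 ± 0.09 and -0.38 ± 0.07. One more was Itpripl1, Snrnp200 and Ciao1 on chromosome 2, with differences of -0.39 ± 0.06, -0.45 ± 0.10 and -0.44 ± 0.10. Probe sets with several gene symbols, which were left out of all counts above, were called in 157 of 993 cases (15.8%), 47 higher and 110 lower in C3H.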

How the data were processed

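Liver RNA of 20 mice of 4 strains was measured on Affymetrix whole-transcript arrays, 1 an animal. The deposited values are log2 intensities that the authors made with RMA in Affymetrix Expression Console, per the submitters' processing notes, whose versions are not given in the sources used here. Of 35556 probe sets, 21789 had 1 gene symbol in the platform annotation, 1621 several and 12146 none; 21698 were matched to RefSeq by Entrez identifier. A gene was represented by its brightest probe set, as 999 genes had several, and was tested where at least 5 arrays lay above their own 40th percentile; 5748 genes were set aside. A gene that was bright in the 5 animals of 1 strain alone could thus be tested. One mean per strain was fitted over all 20 arrays with limma 3.58.1 (R 4.3.3, data.table version 1.17.8; lmFit, eBayes with trend; 16 residual and 6.375 prior degrees of freedom), and p-values were adjusted by Benjamini-Hochberg. The script was tested on simulated data. Figures used Python 3.11.15 with matplotlib 3.10.9 and pandas 2.3.3.

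The labels name separate animals, with no litter, cage or array batch, so p-values measure the spread between animals within strains. That spread was pooled over all strains of the series and moderated by limma, and is not that of C3H and C57/Bl6 alone. Where 1 strain varied far more than the others, as C3H did for Cyp46a1, the SE and the p-value can be too small. Where all arrays of a strain were dim, a bound was taken as the other strain's mean against the mean 40th percentile of the dim strain's arrays (6.63 in C3H, 6.57 in C57/Bl6). Array spread was the interquartile range over all probe sets. Summed levels are of linear values over a list's tested genes. Alternatives were other normalizations, filters, moderation, weights, thresholds, sets of arrays and each animal left out. Genes and lists were chosen with earlier results of these data known. Named were the 15 largest differences each way among genes called in both fits without overlap, up to 5 called members a list, all measured members of the list of reported strain differences, Nudt19, the 5 largest each way called in only 1 fit, members of runs of neighbouring genes and called cell type markers, leaving out predicted genes and clones. Alb, Clec4f, Vsig4, Timd4, Cd5l and Gm5617 were added after their values were seen. Probe sequences were not used here, so whether strain sequence differences under probes move a value was not tested.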

Additional observations from a re-analysis of the deposited data

Results flagged for a closer look

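In a group of 5 animals, 1 animal stood apart where its gap to the nearest other exceeded the 95% limit of Dixon's test, which chance passes in about 1 of 20 groups. The test was run on 204 groups, 2 strains for 102 genes, and passed in 14. The groups share the same animals and so are not independent, and whether 14 exceeds what chance gives was not tested. C57/Bl6 animal 3 accounts for 6 of the 14. It was above the others in Aldh3a2 (11.41 against 10.44 to 10.66), Gpat3 (7.84 against 7.12 to 7.30), Ifit2 (7.11 against 6.57 to 6.69), Lyz2 (9.93 against 8.94 to 9.23) and Mx2 (7.40 against 6.77 to 6.91), and under them in Hc (12.30 against 12.48 to 12.54). Among the other C57/Bl6 animals, animal 4 was high in Ces1e (10.51) and animal 2 in Serpina9 (6.78). In C3H, animal 2 was high in Aldh3a2 (10.67) and Ifit3 (8.04), animal 3 high in H2-Eb1 (7.79) and low in Tpmt (11.65), animal 5 low in Trim12a (4.58), where all C3H values were dim, and animal 1 high in Wdfy1 (8.50).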

How the results depend on the processing

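The number of genes called moved with the settings. Some of the genes counted next were chosen because the covariate kept or lost their call. The share of them kept with the covariate is thus partly set by that choice. Over all 1142 called genes, 588 kept their call and sign with it. Of the 151 called genes chosen for description, 142 kept their call with no filter on dim genes, 134 with equal array medians and interquartile ranges, 124 without the 3 arrays of narrowest spread, 94 with spread as a covariate, 68 with that covariate and only both strains in the fit, and 29 in the arrays of shared spread, where the lone C57/Bl6 array was taken to vary like the others. In that last fit 3 genes changed sign, to -0.10 for Ces4a, -0.093 for Serpina9 and 0.048 for Acot4. B2m changed sign to 0.015 with equal medians and interquartile ranges.

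The number called was 396 (191 higher, 205 lower) with the covariate and only both strains in the fit, 69 (35 and 34) in the arrays of shared spread, 1889 (781 higher) with array weights, 177 (60 and 117) in a test against a fold of 1.2, 79 (28 and 51) at 1 log2 unit or more and 518 (158 and 360) at an adjusted p under 0.01. The number lower was 407 with the covariate, and the number higher 246 with the filter at the 60th percentile. With single animals left out, 739 to 1477 genes were called, 241 to 551 higher and 495 to 926 lower, and the difference in array spread was -0.140 to -0.0832. The causes of these changes were not tested, apart from the smaller number of animals or genes that a setting itself brings. The strains were compared without pairing, as the labels name separate animals with nothing that pairs them. With 1 array an animal and 5 animals a strain, the number of animals limits the precision, and dim values have only a bound.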

Other observations

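Further runs of neighbouring called genes were called in part with array spread as a covariate. Rnf181, Vamp5 and Vamp8 on chromosome 6, Cd52, Sh3bgrl3 and Cep85 on chromosome 4, Rbm7, Gm5617 and Nnmt on chromosome 9 and H4c3, Hfe and H1f2 on chromosome 13 each had 2 of 3 members called in both fits. Ifi27l2a, Ifi27 and Ifi27l2b on chromosome 12, a cluster of interferon-stimulated genes, had 0 of 3.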
